A study of Mus musculus with 2 samples.

Results

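The cells described here are leukocytes of mouse dental pulp that carried Cd209a, the gene of a C-type lectin of dendritic cells, together with the MHC class II gene H2-Eb1. A cell was included when it had at least 1 unique molecular identifier (UMI, a tag that counts 1 captured RNA molecule) of Cd209a, at least 2 of H2-Eb1 and at least 1 of the leukocyte genes Ptprc or Tyrobp. It also had to hold fewer than 6 summed UMIs of the macrophage complement genes C1qa, C1qb and C1qc, and 0 UMIs of Cdh5 (endothelium), Sox10 (glia) and Notch3 (mural cells). Of 4012 cells that passed the quality limits, 417 met these conditions, 222 of the 2329 control and 195 of the 1683 knockout cells. Because measured UMIs chose the cells, the levels of the genes in that definition are given as description only.

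The pulp, the soft tissue inside the tooth that holds its vessels and nerves, was taken from C57BL/6 mice at postnatal day 12 and dissociated with enzymes, and cells that excluded the dead-cell dye propidium iodide were sorted. A single droplet-based 3' RNA-seq library was made for each genotype, control and Vegfr2 knockout, and the series states that the knockout was endothelial. How the knockout was made, which Cre line was used and how many animals entered each library are not given in the sources used here. With 1 library per genotype no difference has a replicate check, so no test was made, and every interval is an exact 95% interval that covers counting error only.

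Dendritic cells take up antigen in tissues, cut it into peptides and show these on MHC class II molecules to T cells. They arise either from committed precursors that depend on the receptor Flt3, as conventional dendritic cells do, or from blood monocytes that enter through the chemokine receptor Ccr2, and Cd209a is carried by both the type 2 conventional cells (cDC2) and the monocyte-derived ones. On maturation they raise Cd83 and costimulatory molecules and gain Ccr7, the receptor that guides them along lymphatic vessels to lymph nodes.

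The 222 control cells held 4298754 UMIs in all and the 195 knockout cells 2590448, with medians of 18887.5 and 13302 UMIs per cell, 3707 and 2858 genes, and 2.38% and 2.42% mitochondrial UMIs. Depth therefore differed between the libraries, and levels are given as CPM, the usual per-megacount scale in which a gene's summed UMIs are divided by all UMIs of the same cells. Kdr, which encodes VEGFR2, was at 849 CPM over the 475 control cells with a Cdh5 UMI and at 461 CPM over the 167 such knockout cells; since 3' tags need not lie in the deleted part, this does not measure the deletion. The libraries shared 3 barcodes, and 0 of the 417 cells had the barcode of a cell described here in the other library. The libraries also differed in sex: 166 control cells (74.8%) had Xist and no Y-linked UMI against 91 knockout cells (46.7%), and 39 (17.6%) against 56 (28.7%) had Y-linked UMIs and no Xist. Female and male cells come from different animals, so ratios within each are given at the end, and beside a pooled ratio where the 2 sets differ most.

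Cd209a-positive dendritic-like cells made up 9.53% (8.37 to 10.8) of control cells and 11.6% (10.1 to 13.2) of knockout cells, a knockout over control ratio of 1.22 (0.998 to 1.48). That interval includes 1. Among cells with Ptprc or Tyrobp, 850 in the control and 813 in the knockout library, the shares were 26.1% and 24.0%, and the ratio lay on the other side of 1 at 0.918 (0.754 to 1.12). After every cell was thinned to 2000 UMIs before the definition was applied, 184 of 2229 control cells (8.25%) and 136 of 1545 knockout cells (8.80%) met it, a ratio of 1.07 (0.848 to 1.34); 100 control and 138 knockout cells were too shallow to thin. The direction of the share thus depended on the denominator. Without thinning, 2 neighbouring leukocyte classes were more frequent in the knockout library: MHC class II cells without Cd209a (37 of 2329 and 97 of 1683, ratio 3.63, 2.46 to 5.45) and Ly6c2-positive cells low in MHC class II (42 and 81, ratio 2.67, 1.82 to 3.97). C1q macrophage-like cells numbered 108 and 79, a ratio of 1.01 (0.748 to 1.37). The shares of these classes were not computed at equal depth. Their rules use absolute UMI limits, so a shallower cell can fall into another class. Median depth was 12406 and 9749 UMIs in the Cd209a-negative cells and 12352.5 and 8947 UMIs in the Ly6c2-positive cells. The part of depth in these ratios was not tested.

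The counts near the limits of the definition were as follows. Per cell, Cd209a ranged from 1 to 77 UMIs (median 17) among control and from 1 to 72 (median 8) among knockout cells, and H2-Eb1 had medians of 188 and 124 UMIs. Cells with exactly 1 Cd209a UMI numbered 16 and 23, and their H2-Eb1 level was 6826 and 6014 CPM, far above the 17.7 and 49.5 CPM of glia without leukocyte UMIs. Cells with 2 to 5 H2-Eb1 UMIs numbered 3 and 5, and cells with 3 to 5 C1q UMIs 6 and 3, while 196 and 172 cells had 0 C1q UMIs. Just outside, 5 and 5 cells failed only on H2-Eb1, 0 and 0 cells had 6 to 8 C1q UMIs, 17 and 3 had 6 or more, and 36 and 13 were left out for a UMI of Cdh5, Sox10 or Notch3. In glia, which should lack both genes, 2.02% and 1.84% of cells had a Cd209a UMI and 22.2% and 37.3% an H2-Eb1 UMI, at median depths of 12990 and 9397 UMIs.

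Genes outside the definition are described next. Cd83, Tnfsf9 and Traf1 were given as markers of these cells with earlier results of these data known. Their levels are therefore description and cannot check the label. Cd83, an activation marker of dendritic cells, was at 278 and 744 CPM in control and knockout cells, with medians of 3 and 8 UMIs per cell. Tnfsf9, the costimulatory 4-1BB ligand, was at 253 and 249.8 CPM, and Traf1, a signalling adaptor induced by NF-kB, at 246 and 409 CPM. These 3 genes were higher here than in each of the 4 other classes in both libraries; the nearest values were 98.4 and 326 CPM for Cd83 and 113 and 203 CPM for Traf1 in the Cd209a-negative MHC class II cells, while for Tnfsf9 they were 47.8 CPM in control C1q macrophage-like cells and 61.0 CPM in knockout Cd209a-negative MHC class II cells. Flt3, the growth factor receptor of conventional dendritic cells, was at 75.6 and 58.7 CPM against 5.88 and 4.05 CPM in C1q macrophage-like and 3.35 and 8.10 CPM in Ly6c2-positive cells, and Zbtb46, a transcription factor of the same lineage, at 27.0 and 25.1 CPM against 11 and 12.2 CPM and 5.02 and 1.35 CPM. Both were somewhat higher still in the Cd209a-negative MHC class II cells, Flt3 at 93.2 and 72.0 CPM and Zbtb46 at 40.4 and 36.0 CPM. The cDC2 lectins Mgl2 and Clec10a were at 502 and 451 CPM and at 575 and 479 CPM.

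Genes of monocytes were present as well. Ccr2 was at 696 and 464 CPM, Plac8 at 884 and 828 CPM and the lysozyme gene Lyz2 at 1923 and 2015 CPM, the last well below the 18518 and 19385 CPM of Ly6c2-positive cells. Ly6c2 itself, which marks classical monocytes, had only 15 and 41 UMIs. Macrophage markers were far lower than in C1q macrophage-like cells: Pf4 was at 3.26 and 4.63 CPM against 2182 and 2931 CPM in the C1q class, and Apoe at 226 and 92.6 CPM against 14019 and 17106 CPM. Xcr1 and Clec9a, which define type 1 conventional dendritic cells (cDC1), were at 10.2 and 5.02 CPM and 5.12 and 2.32 CPM, and Cd207, the langerin of Langerhans cells, had 0 and 0 UMIs. The cells therefore carried dendritic and cDC2 genes beside monocyte genes, and dendritic-like is kept as their name.

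**Figure D1:**
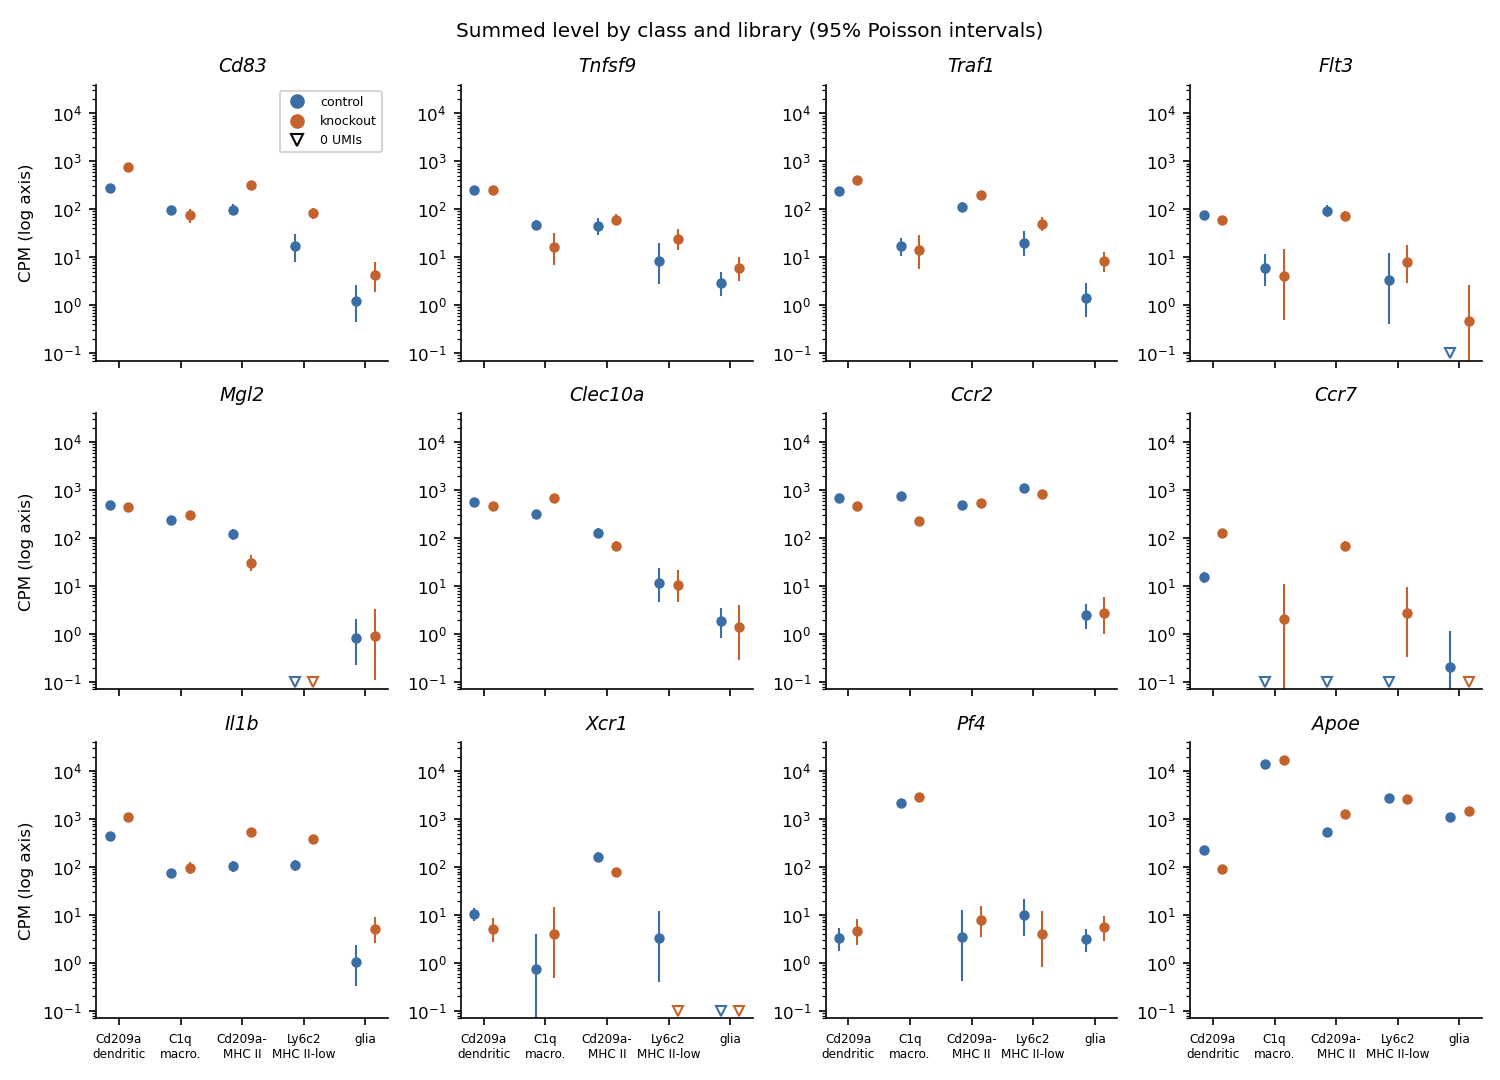
Summed level in CPM (log axis) of 12 genes in 5 classes of cells, control in blue and knockout in orange, with exact 95% Poisson intervals and open triangles for 0 UMIs. Cd83, Tnfsf9 and Traf1, the markers given in advance, are highest in the Cd209a dendritic-like cells in both libraries. Pf4 is at 3.26 and 4.63 CPM there against 2182 and 2931 CPM in C1q macrophage-like cells, and Ccr7 differs between the libraries.

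A set of 3 reference classes was drawn with fixed UMI rules for comparison, all from cells with Ptprc or Tyrobp and 0 UMIs of Cdh5, Sox10 and Notch3. The C1q macrophage-like cells had 6 or more summed C1q UMIs; the other classes had fewer than 6 and 0 Cd209a UMIs, with at least 2 H2-Eb1 UMIs and 0 of the lymphocyte genes Cd79a, Cd79b, Ms4a1 and Cd3e (MHC class II cells), or with fewer than 2 H2-Eb1, at least 2 Ly6c2 and at least 1 Lyz2 UMI (Ly6c2-positive cells). As the rules use expression, these contrasts are a description with no test. Against C1q macrophage-like cells, 367 of 7412 genes (4.95%) were at least 2-fold higher in both libraries and 828 (11.2%) at least 2-fold lower. Of the macrophage list, 18 of 21 measured genes were at least 2-fold lower in both libraries. The chemokine gene Pf4 was 670.0-fold lower in the control and 633-fold lower in the knockout library, and the scavenger receptor gene Stab1 330.5-fold and 313-fold lower. The adhesion gene Vcam1 had 0 and 0 UMIs here against 51 and 92 in the macrophage-like cells. In the other direction stood 9 of 11 MHC class II genes, 12 of 23 NF-kB genes and 12 of 20 genes of the dissociation stress list, immediate early and heat shock genes that enzyme digestion can raise. The genes furthest above the macrophage-like cells included Ccr7, Il7r and the transcription factor gene Ehf, which was at 46.3 and 58.7 CPM against 1.47 and 2.03 CPM, ratios of 31.5 (8.60 to 262) and 28.9 (5.12 to 1151).

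The MHC class II cells without Cd209a were the nearest class: 156 of 7562 genes (2.06%) were at least 2-fold higher in the Cd209a-positive cells in both libraries and 237 (3.13%) at least 2-fold lower. All 11 of 11 measured cDC1 genes were among the lower ones; Clec9a, a receptor for dead cells, was at 5.12 and 2.32 CPM against 119.5 and 94 CPM. The neutrophil genes S100a8 and S100a9 and the Stfa genes were also higher in the Cd209a-negative cells, with S100a8 at 2618 and 737 CPM there. Of the MHC class II list, 0 of 11 genes were at least 2-fold higher in both libraries, and 0 at least 2-fold lower. Higher in the Cd209a-positive cells were 5 of 12 cDC2 genes and 7 of 23 NF-kB genes. Tnip3, an inhibitor of NF-kB signalling, was at 365 and 288 CPM against 51.0 and 38.0 CPM, ratios of 7.16 (4.97 to 10.7) and 7.59 (5.48 to 10.8). The lectin gene Cd209d, of the same family as Cd209a, was at 173 and 104 CPM against 12.3 CPM and 0 UMIs, at least 34.6-fold higher in the knockout library when the 0 is set to 3 counts over the class, as for every such bound here. The monocyte chemoattractant gene Ccl2 was at 44.7 and 90.3 CPM against 3.52 and 17.0 CPM.

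The Ly6c2-positive cells low in MHC class II are named by their rule, since their leading genes were granule genes of the neutrophil line. Ngp, a neutrophil granule gene, was at 4739.5 and 4907 CPM there against 1.16 and 5.4 CPM in the Cd209a-positive cells. Against this class, 397 of 7290 genes (5.45%) were at least 2-fold higher in both libraries and 442 (6.06%) at least 2-fold lower. All 8 of 8 measured dendritic genes, 9 of 11 MHC class II genes and 14 of 23 NF-kB genes were on the higher side, and 10 of 16 monocyte genes on the lower. Mgl2 had 0 and 0 UMIs in the Ly6c2-positive cells, so it was at least 100.01-fold and at least 111-fold higher in the Cd209a-positive cells.

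Genes of other cell types were low in sum. The neutrophil list summed to 33.5 and 103 CPM here against 2416 and 4368 CPM over the other cells, the mesenchyme list to 228 and 468 CPM against 6202 and 6159 CPM, and the glial list to 124 and 197 CPM against 6366 and 13019 CPM. The endothelial list summed to 36.1 and 36.3 CPM against 1388 and 585 CPM. Most of these sums were higher in the knockout library, and a few cells held much of them: 1 control cell carried 32.6% and 1 knockout cell 39.8% of the mesenchyme UMIs, and 6 and 6 cells had 10 or more UMIs of any of the mesenchyme, glial, mural, endothelial or neutrophil lists. With those cells left out, and those rich in Siglech or Ccr9, an alternative added after the data were seen, 322 genes were at least 2-fold higher and 429 at least 2-fold lower in the knockout cells, against 354 (3.86% of genes tested) and 433 (4.72%) over all the cells. The T and NK list summed to 10.0 and 80.3 CPM, most of it Il7r, and of 21 control and 53 knockout cells with Il7r only 0 and 2 also had a T cell receptor or CD3 gene. The immunoglobulin gene Ighm, of B cells, was at 154 and 108 CPM. For Siglech and Ccr9, which mark plasmacytoid dendritic cells, 1 cell in each library held 76.0% and 88.0% of the UMIs.

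The cells were not uniform in the genes the definition did not use. Mgl2 divided the cells about equally, with UMIs in 118 of the control (53.2%) and 104 of the knockout cells (53.3%), and in 37.3% and 33.9% after thinning to 2000 UMIs. Ccr2 was found in 97.3% and 90.8% of cells, and in 64.5% and 55.0% after thinning. Flt3 or Zbtb46 was found in 77.5% and 59.5%, but at equal depth in 16.8% and 18%. The cycling genes Mki67 or Top2a were found in 41.0% and 40.5% of cells and in 13.6% and 16.9% after thinning, and the monocyte and macrophage gene Fcgr1 in 22.5% and 14.4%. Small groups of 10 and 9 cells had Xcr1 or Clec9a, and 8 and 12 (3.60% and 6.15%) had Ly6c2, beside 1.73% and 1.84% of glia.

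Ccr7 set the libraries apart. It was detected among the 222 control cells in 12 (5.41%, 2.82 to 9.25) and among the 195 knockout cells in 46 (23.6%, 17.8 to 30.2), a knockout over control ratio of 4.36 (2.28 to 9.05), although the knockout cells were the shallower. After thinning the counts were 6 of 220 (2.73%) and 21 of 189 (11.1%), a ratio of 4.07 (1.59 to 12.3); 2 control and 6 knockout cells were too shallow. In glia 1 of 347 control cells and 0 of 217 knockout cells had a Ccr7 UMI, and a count of 0 (set to 3 counts) allows a share of cells with a UMI of up to 1.38%. Among Xist-positive cells the counts were 6 of 166 (3.61%) and 27 of 91 (29.7%), and among Y-positive cells 5 of 39 (12.8%) and 10 of 56 (17.9%), a ratio of 1.39 (0.434 to 5.19). The gap was therefore wide among Xist-positive cells, while the interval in the few Y-positive cells included 1. Fscn1, which marks fully mature migratory dendritic cells, was found in 10 and 10 cells, together with Ccr7 in 0 and 1, and was far more frequent in glia (63.7% and 61.3%). Cd83 was found in 72.1% and 80.5% of cells, and at equal depth in 32.3% and 56.6%, a ratio of 1.75 (1.29 to 2.40). Il1b, the interleukin-1 beta gene, was found in 55.4% and 68.7% of cells and in 29.1% and 50.8% after thinning. In glia the shares with a UMI were 1.73% and 4.15% for Cd83, 1.44% and 5.07% for Il1b, 1.15% and 0.922% for Mgl2 and 3.46% and 2.76% for Ccr2, so all these genes were far more frequent here than such background.

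**Figure D2:**
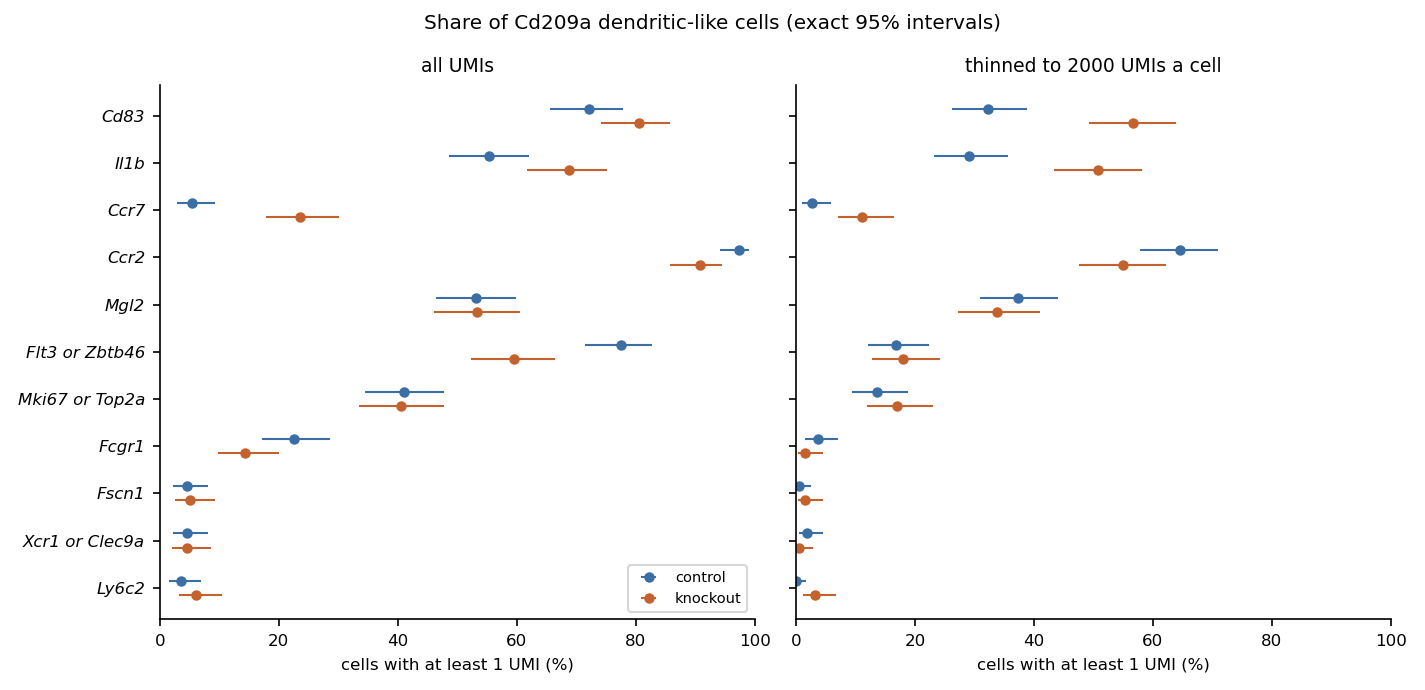
Share of Cd209a dendritic-like cells with at least 1 UMI of each gene or pair of genes, in percent, with exact 95% binomial intervals, from all UMIs (left) and after thinning each cell to 2000 UMIs (right). The control and knockout intervals of Ccr7 do not overlap in either panel (5.41% and 23.6%, then 2.73% and 11.1%), whereas those of Mgl2 do.

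The Ccr7-positive cells were compared with the Ccr7-negative cells within each library, 12 against 210 cells in the control and 46 against 149 in the knockout. The positive cells were somewhat deeper, with medians of 21459.5 against 18841.5 UMIs and 14729.5 against 12788 UMIs. Cd83 was at 568 and 258 CPM in positive and negative control cells and at 1318 and 537 CPM in knockout cells, ratios of 2.21 (1.86 to 2.60) and 2.46 (2.24 to 2.69). Il1b was at 1604 and 363 CPM and at 2067 and 749.7 CPM, ratios of 4.42 (3.98 to 4.91) and 2.76 (2.56 to 2.97). Il1r2, a decoy receptor that binds interleukin-1, had ratios of 3.19 (1.86 to 5.24) and 2.55 (2.09 to 3.12). The same side was taken in both libraries by the NF-kB subunit Rel (1.93 and 1.90), by Traf1 (2.49 and 1.62), and by the chemokine Cxcl16 (2.08 and 1.87). These activation genes were higher in Ccr7-positive cells in each library, with the exception of Tnfsf9, whose ratio was 1.78 (1.47 to 2.15) in the control and 0.969 (0.808 to 1.16) in the knockout library.

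Lyz2, Irf8, Ccr2 and Vcan, 4 genes of monocytes, lay lower in the Ccr7-positive cells. Lyz2 was at 741 and 2008 CPM and at 841 and 2439.8 CPM in positive and negative cells, ratios of 0.369 (0.321 to 0.423) and 0.345 (0.316 to 0.376). Irf8, a transcription factor of monocytes and cDC1, had ratios of 0.373 (0.120 to 0.887) and 0.112 (0.0405 to 0.25). Ccr2 had ratios of 0.661 and 0.548, and Vcan, a matrix gene of monocytes, had 0 UMIs in the positive control cells. Cycling genes were higher: Top2a was at 603 and 132 CPM and at 137 and 76.8 CPM, and Mki67 had ratios of 3.80 and 1.94. H2-Eb1 and Flt3 differed little, with ratios of 1.01 and 1.18 for H2-Eb1 and 0.862 (0.512 to 1.37) and 0.827 (0.550 to 1.22) for Flt3.

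**Figure D3:**
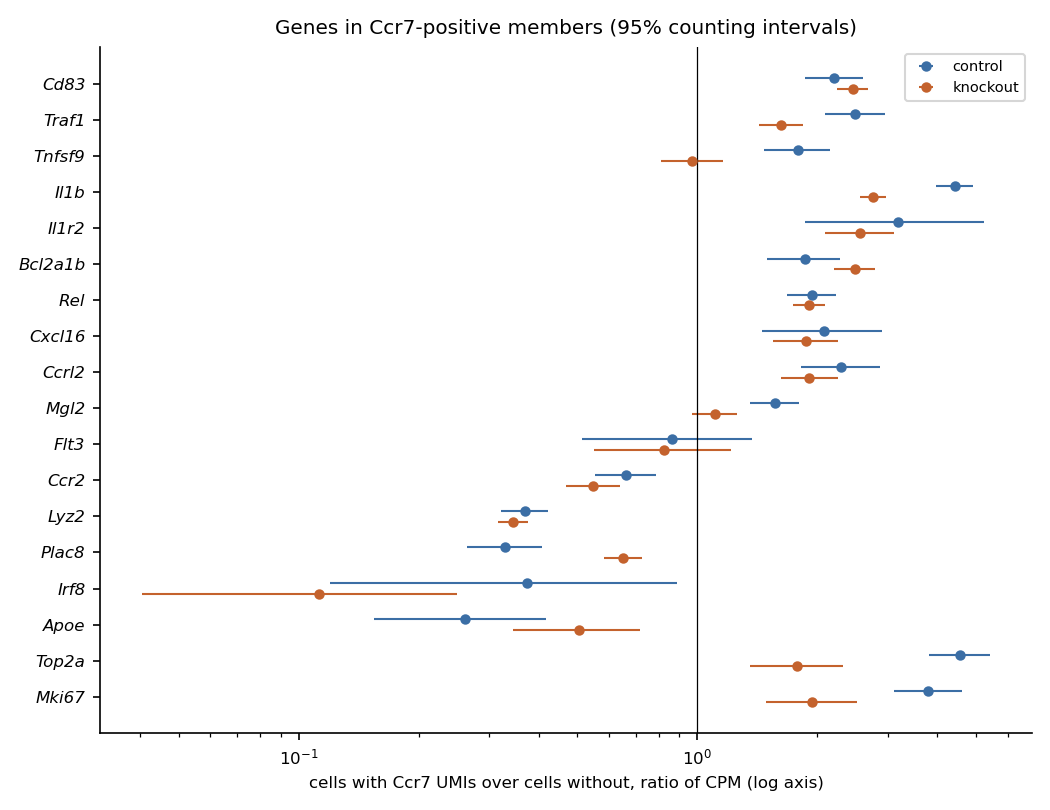
Ratio of summed CPM (log axis) in cells with a Ccr7 UMI over cells without, for 18 genes in each library, with exact 95% intervals; the vertical line marks equal levels. Cd83, Il1b and Il1r2 lie to the right and Lyz2 and Irf8 to the left in both libraries.

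Splits by Mgl2 and by the cycling genes, both chosen after the data were seen, gave other axes. Cells with Mgl2 had more Ccl2 (ratios over Mgl2-negative cells of 2.07 and 3.83 in control and knockout), more Cd14, the lipopolysaccharide co-receptor (2.26 and 2.92), and more of the haemoglobin scavenger receptor Cd163 (1.60 and 2.39). They had less of the chemokine Ccl5 (0.126 and 0.0301), Irf8 (0.114 and 0.229) and Vcan (0.0957 and 0.0528). Cells with and without Mgl2 thus differed in the same direction in both libraries for these 6 genes. In the cells with Mki67 or Top2a, 91 and 79, the chromatin gene Hmgb2 was higher (6.21 and 4.03) and Lyz2 lower (0.596 and 0.473), while H2-Eb1 was nearly level (0.892 and 0.966).

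The design asks how pulp cells differ when endothelium lacks VEGFR2. In the dendritic-like cells, RNA of maturation and of glycolysis and hypoxia genes was higher in the knockout library. Both list medians were above 0 over all cells, within each sex and after thinning. That check did not single these lists out. Among others, the chemokine list passed it, with 0.76, 1.00, 0.54 and 0.76 for all, female, male and thinned cells. Lists of other cell types passed it too: glia (0.75, 0.75, 1.54 and 0.73) and mesenchyme (1.16, 1.85, 0.46 and 1.38). Some lists were less steady. Each median used only the list genes with at least 20 UMIs in the cells concerned, so the genes behind it could differ. The part of such changes in membership was not tested. The cytokine median turned from 0.88 to -0.13 and the interferon-response median from -0.40 to 0.13 in cells thinned to 2000 UMIs. The median of the vessel-acting factors stayed above 0 but went from 0.84 to 0.35 in female and 0.22 in male cells. Over all genes with at least 30 UMIs, 354 of 9169 (3.86%) were at least 2-fold higher in the knockout cells and 433 (4.72%) at least 2-fold lower. The median gene was slightly lower in the knockout cells (median log2 ratio -0.17), and after division by that median ratio the split was 462 higher and 246 lower. For gene lists the 1.5-fold line was used, which 926 of 9948 genes with at least 20 UMIs (9.31%) passed upward and 1781 (17.9%) downward. Each list's counts are read beside these shares.

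The 12 genes that stood highest in the knockout cells by the interval bound nearest 1 had ratios between 5.8 and 24.0. Slc7a11, the cystine importer that supplies glutathione synthesis, was at 4.42 CPM in control cells against 88.4 CPM in knockout cells, a ratio of 20 (12.5 to 33.8), and was found in 10 control and 46 knockout cells; the ratio was 40.0 (21.2 to 85.1) in Xist-positive and 2.76 (1.24 to 6.71) in Y-positive cells. The glutathione transferase Gstp1 was at 2.09 and 50.2 CPM, a ratio of 24.0 (12.2 to 53.6), and the mitochondrial pyrimidine carrier Slc25a33 at 2.79 and 40.5 CPM, a ratio of 14.5 (7.97 to 29.0). Ramp3, which couples to the receptor for adrenomedullin, was at 2.33 and 33.6 CPM, a ratio of 14.4 (7.49 to 31.2). Over all other cells Ramp3 ran the other way (21.2 and 7.32 CPM), and it was the only gene of the 12 to do so. Ccr7 was at 15.4 and 129.7 CPM, a ratio of 8.45 (6.47 to 11.2). Il7r, the receptor for interleukin-7 and thymic stromal lymphopoietin, was at 7.44 and 62.2 CPM, a ratio of 8.35 (5.69 to 12.6), and the decoy receptor Il1r2 at 24.9 and 156 CPM, a ratio of 6.27 (5.05 to 7.83). Plaur, the urokinase receptor, was at 60.7 and 352 CPM, a ratio of 5.8 (5.05 to 6.68), in 89 control and 132 knockout cells. The remaining 4 genes were Flrt3, Hist1h2ap, Timd4 and Lsmem1, and no cell held more than 30.7% of the UMIs of any of the 12 in the knockout library. Over the other cells of the libraries 11 of the 12 lay on the same side and 9 were at least 2-fold higher, Gstp1 among them (5.58 and 91.4 CPM), so most of these genes were also higher in the rest of the knockout library.

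The 12 genes that stood lowest included several of cholesterol synthesis, the interferon response and histones. Msmo1 and Idi1, enzymes of sterol synthesis, were at 38.4 and 6.56 CPM and at 32.8 and 8.88 CPM, knockout over control ratios of 0.171 (0.0972 to 0.282) and 0.271 (0.166 to 0.423), whereas over the other cells they were at 37.5 and 43.0 CPM and 43.7 and 40.9 CPM. Oasl2, an interferon-induced gene, had 40 and 1 UMIs, a ratio of 0.0415 (0.00103 to 0.245). The interferon-inducible DNA sensor family members Mndal and Ifi211 were at 201 and 66.4 CPM and at 51.2 and 15.1 CPM, ratios of 0.331 (0.279 to 0.390) and 0.294 (0.204 to 0.415); they are close copies, and reads of such copies can be divided among them by the counting. The linker histone gene Hist1h1b was at 65.4 and 7.33 CPM, a ratio of 0.112 (0.0666 to 0.179), and Hist1h3c had a ratio of 0.260. Histone genes stood on both lists, since Hist1h2ap was among the higher ones, and these transcripts largely lack the poly(A) tail that the capture uses. Gpr34, a lysophosphatidylserine receptor, was at 27.4 and 5.02 CPM, a ratio of 0.183 (0.0946 to 0.325). AY036118, a noncoding transcript on chromosome 17, was at 232 and 33.6 CPM here and at 668 and 121 CPM in the other cells. Tsix, the antisense partner of Xist, was at 41.4 and 7.72 CPM, beside the lower share of Xist-positive cells in the knockout library. Among Xist-positive cells alone Tsix was still lower, at 53.9 and 16.3 CPM, a ratio of 0.302 (0.180 to 0.481). Olfr1459 had 55 and 1 UMIs and Rbsn 33 and 2 UMIs, with ratios of 0.0302 (0.000750 to 0.175) and 0.101 (0.0117 to 0.393). In the other cells 11 of the 12 lay on the same side and 5 were at least 2-fold lower.

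Of the lectins, which bind sugars on microbes and host proteins, 2 of the 3 CD209 family members measured outside the definition were at least 1.5-fold lower in the knockout cells and 0 higher. Cd209a, which chose the cells, was at 919.6 and 789.8 CPM. Cd209b was at 95.1 and 45.9 CPM, a ratio of 0.483 (0.390 to 0.594), and Cd209d at 173 and 104 CPM, a ratio of 0.600 (0.520 to 0.691), and Cd209c at 15.6 and 13.1 CPM, a ratio of 0.842 (0.540 to 1.29). The galactose-type lectins Mgl2 and Clec10a had ratios of 0.898 (0.836 to 0.965) and 0.833 (0.778 to 0.892). Of 14 C-type lectins measured, 2 were at least 1.5-fold higher and 2 lower, with a median log2 ratio of -0.21 (all genes -0.17). The higher pair was Clec4n, which encodes the fungal receptor Dectin-2, at 19.1 and 57.9 CPM, a ratio of 3.04 (2.30 to 4.02) that was 3.49 (2.37 to 5.16) in Xist-positive and 1.38 (0.829 to 2.33) in Y-positive cells, and Clec4d at 1.86 and 6.95 CPM, a ratio of 3.73 (1.54 to 9.92).

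Most MHC class II genes were near level, while the summed list, which does not contain H2-Eb1, was at 46016 CPM in control and 54688 CPM in knockout cells. H2-Eb1 (chr17:34305867-34316674, plus strand, GRCm38) was at 9559.8 and 9874 CPM, the alpha chain H2-Aa at 10777 and 13175 CPM and the beta chain H2-Ab1 at 8357 and 6682 CPM. The invariant chain Cd74 was at 23776 and 31730.4 CPM. Of 12 genes measured, 2 were at least 1.5-fold higher and 1 lower, with a median log2 ratio of 0.04. The higher ones were Lgmn, a protease that trims antigen, at 116 and 206 CPM, a ratio of 1.78 (1.57 to 2.01), and the peptide exchange subunit H2-DMb2, at 91.4 and 137 CPM, a ratio of 1.5 (1.30 to 1.74). The lower one was Ciita, the coactivator that switches class II genes on, at 190.1 and 113 CPM, a ratio of 0.597 (0.521 to 0.683); its ratio was 0.521 (0.430 to 0.629) among Xist-positive and 1.02 (0.767 to 1.36) among Y-positive cells. Class I genes were also near level, with 0 of 12 at least 1.5-fold higher, 1 lower and a median log2 ratio of -0.14; B2m was at 1211 and 1071 CPM.

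Class II promoters are known for a conserved element, the Y box, bound by the factor NF-Y. Because most class II genes of these cells were level together, the 250 bases before the start of each were searched on both strands for the Y box letters CTGATTGG. RefSeq entries of GRCm38.p6 were matched for 6 of the 12 class II genes measured and for H2-Eb1: H2-Eb1, H2-Aa and H2-Oa held 1 match each and H2-DMa, H2-DMb1, H2-DMb2 and H2-Ob held 0, beside 1099 of 27025 promoters of the same length (4.07%) over all genes. The letters of another class II element, the X box, and of an NF-kB site were also searched. The X box letters had 0 matches in these class II promoters, beside 236 of 27025 (0.873%) over all genes. An element that departs from the letters searched gives no match, so 0 matches does not show that these promoters lack it. The NF-kB site had 3 matches in H2-Aa and 0 in the others, beside 1894 of 27025 (7.01%). Matches on both strands were counted and can overlap, so these 3 need not be separate sites. The stretches with a Y box match are shown for their shared letters, which stand in capitals, each written 5′ to 3′ on the strand of its gene.
H2-Eb1, chr17:34305617-34305866, plus strand: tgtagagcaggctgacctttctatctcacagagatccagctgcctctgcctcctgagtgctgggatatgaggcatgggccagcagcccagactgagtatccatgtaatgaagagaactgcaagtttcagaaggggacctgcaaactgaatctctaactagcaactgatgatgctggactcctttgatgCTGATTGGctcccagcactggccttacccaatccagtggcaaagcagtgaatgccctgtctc
H2-Aa, chr17:34287824-34288073, minus strand: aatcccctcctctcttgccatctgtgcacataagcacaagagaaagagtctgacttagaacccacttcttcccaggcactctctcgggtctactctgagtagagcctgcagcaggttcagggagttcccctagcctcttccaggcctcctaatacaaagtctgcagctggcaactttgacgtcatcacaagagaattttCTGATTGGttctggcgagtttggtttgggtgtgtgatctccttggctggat
H2-Oa, chr17:34092129-34092378, plus strand: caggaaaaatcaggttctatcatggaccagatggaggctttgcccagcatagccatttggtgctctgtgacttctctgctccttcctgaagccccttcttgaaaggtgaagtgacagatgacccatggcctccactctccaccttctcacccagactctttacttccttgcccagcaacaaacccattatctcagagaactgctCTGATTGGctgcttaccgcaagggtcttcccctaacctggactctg
A match is a description of these letters only. H2-DMb1, H2-DMb2 and H2-Ob held TGATTGG, the same letters without the leading C. The exact search therefore does not divide genes with the element from genes without it. The genes with the full letters, H2-Eb1, H2-Aa and H2-Oa, had knockout over control ratios of 1.03, 1.22 and 0.976. Those without the full letters, H2-DMa, H2-DMb1, H2-DMb2 and H2-Ob, had ratios of 1.03, 1.02, 1.5 and 1.13.

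Some genes of conventional dendritic cells were lower in the knockout cells. The pan-dendritic list had medians of -0.31 in Xist-positive and -0.12 in Y-positive cells. Flt3 was at 75.6 and 58.7 CPM, a ratio of 0.776 (0.636 to 0.944), and Zbtb46 at 27.0 and 25.1 CPM, a ratio of 0.930 (0.676 to 1.27). The peptidase Dpp4 was at 108 and 71.0 CPM, a ratio of 0.657 (0.551 to 0.781), the transcription factor Batf3 at 111 and 67.6 CPM, a ratio of 0.609 (0.509 to 0.725), and the kynurenine enzyme Kmo at 52.1 and 25.1 CPM, a ratio of 0.482 (0.360 to 0.637). Of 10 dendritic genes measured, 0 were at least 1.5-fold higher and 4 lower (17.9% of all genes were), with a median log2 ratio of -0.35. In Y-positive cells the intervals of Flt3 at 0.992 (0.645 to 1.53), Dpp4 at 0.962 (0.671 to 1.38), Batf3 at 0.786 (0.552 to 1.11) and Kmo at 0.628 (0.334 to 1.15) all included 1. The cDC2 genes were nearer to all genes: 1 of 13 was higher, 0 lower, and the median was -0.11. Irf4, a transcription factor of cDC2, was at 45.4 and 32.4 CPM, Klf4 at 295 and 298 CPM and Sirpa at 188 and 231 CPM. Monocyte genes divided both ways: 5 of 16 were higher and 3 lower, with Ccr2 at a ratio of 0.666 (0.623 to 0.713), Cx3cr1 at 0.484 (0.342 to 0.674) and Fn1 at 2.51 (2.02 to 3.12).

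Genes of dendritic cell maturation were higher in the knockout cells. Cd83 (chr13:43784775-43803132, plus strand) was at 278 CPM in control cells against 744 CPM in knockout cells, a ratio of 2.67 (2.49 to 2.88). Traf1 was at 246 and 409 CPM, a ratio of 1.66 (1.52 to 1.81). That ratio was 1.98 (1.77 to 2.22) in Xist-positive and 1.19 (0.998 to 1.41) in Y-positive cells. Tnfsf9 was at 253 and 249.8 CPM, a ratio of 0.986 (0.893 to 1.09) that was 1.01 (0.876 to 1.16) in Xist-positive and 0.663 (0.548 to 0.799) in Y-positive cells. Without the Ccr7-positive cells, an alternative added after the data were seen, the Cd83 ratio was 2.08. Of 21 maturation genes, 14 had 20 or more UMIs, and of these 8 were at least 1.5-fold higher and 0 lower, with a median log2 ratio of 0.77, beside 9.31% and 17.9% of all genes. Marcksl1, a regulator of actin, was at 200.1 and 387 CPM, a ratio of 1.93 (1.76 to 2.12). The costimulatory ligands of CD28, Cd80 and Cd86, were at 12.6 and 40.9 CPM and at 38.4 and 67.6 CPM, ratios of 3.26 (2.33 to 4.61) and 1.76 (1.41 to 2.19). Cd274, the inhibitory ligand PD-L1, was at 4.19 and 12.7 CPM, a ratio of 3.04 (1.66 to 5.74). Of 9 costimulation genes, 4 were higher and 0 lower, and the median log2 ratio of 0.57 came to -0.03 without the Ccr7-positive cells, against 0.65 for the maturation list; Icosl was at 52.3 and 37.1 CPM and Icam1 at 324 and 351 CPM, the latter with opposite ratios of 1.18 (1.05 to 1.32) in Xist-positive and 0.625 (0.526 to 0.742) in Y-positive cells. Genes of the late migratory state were scarce in both libraries: the chemokine gene Ccl22 had 11 and 11 UMIs and Fscn1 10 and 11 UMIs.

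NF-kB, the transcription factor family behind many activation genes, was represented by 23 measured genes, of which 8 were at least 1.5-fold higher and 0 lower (median log2 ratio 0.34). The subunits Nfkb1 and Rel were at 204 and 379 CPM and at 438 and 728 CPM, ratios of 1.86 (1.69 to 2.04) and 1.66 (1.56 to 1.77), and the coactivator Bcl3 at 31.6 and 73.0 CPM, a ratio of 2.31 (1.84 to 2.90) that was 3.09 (2.32 to 4.14) in Xist-positive and 1.26 (0.758 to 2.10) in Y-positive cells. Without the Ccr7-positive cells the ratios of Nfkb1 and Rel were 1.49 and 1.43. The kinase gene Pim1 was at 743 and 1462 CPM, a ratio of 1.97 (1.88 to 2.06). The survival genes Bcl2a1b and Bcl2a1d were at 201 and 427 CPM and at 93.7 and 312 CPM, but they are near-identical copies, and how the counting divided their reads is uncertain. The inhibitor Nfkbia, among the most abundant of the list, was at 1372 and 1439 CPM, a ratio of 1.05 (1.01 to 1.09) that joined opposite differences, 1.14 (1.07 to 1.20) in Xist-positive and 0.653 (0.603 to 0.707) in Y-positive cells. The deubiquitinase Tnfaip3 was at 251 and 255 CPM, a ratio of 1.01 (0.919 to 1.12). The list's median was 0.57 in Xist-positive and 0.04 in Y-positive cells.

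The interleukin-1 system stood out among the cytokines. Il1b was at 446 CPM in control cells against 1099.8 CPM in knockout cells, a ratio of 2.47 (2.33 to 2.61). The decoy receptor Il1r2 had a ratio of 6.27 (5.05 to 7.83), and the receptor antagonist Il1rn was at 0.931 and 10.0 CPM, a ratio of 10.8 (3.74 to 42.5) from few UMIs (4 and 26 UMIs). Ligand and antagonists were thus all higher in the knockout library. Tnf ran the other way, at 166 and 74.9 CPM, a ratio of 0.452 (0.384 to 0.531), and so did Il18, at 39.3 and 27.4 CPM, a ratio of 0.697 (0.521 to 0.925). Of 11 cytokine genes, 6 were at least 1.5-fold higher and 2 lower, with a median log2 ratio of 0.88. In cells thinned to 2000 UMIs the median was -0.13, over only those cytokine genes that still had at least 20 UMIs. Of 12 chemokines, 7 were higher and 0 lower. Ccl4, an attractant of leukocytes, was at 556 and 958 CPM, a ratio of 1.72 (1.63 to 1.82). That ratio joined opposite differences, 1.85 (1.70 to 2.01) in Xist-positive and 0.852 (0.777 to 0.935) in Y-positive cells. Ccl2 was at 44.7 and 90.3 CPM, a ratio of 2.02 (1.66 to 2.46), and Cxcl16, a chemokine made as a membrane protein, at 71.4 and 185 CPM, a ratio of 2.58 (2.23 to 2.99). The neutrophil attractant Cxcl2 was at 23.7 and 101 CPM from 13 control and 30 knockout cells. Ccl5 was at 11.9 and 63.3 CPM, yet it came from 22 control and 11 knockout cells. Ccl6 was at 385 and 339 CPM, with opposite ratios of 0.746 (0.664 to 0.837) in Xist-positive and 1.45 (1.22 to 1.74) in Y-positive cells, and Ccl9 at 269.8 and 229.7 CPM.

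Receptors for chemokines divided: 4 of 8 were at least 1.5-fold higher and 3 lower. Among the higher ones beside Ccr7 were Cxcr4, the receptor for Cxcl12, at 217 and 416 CPM, and the decoy Ccrl2, at 149 and 236 CPM. The lower ones were Ccr2, Cx3cr1 and Xcr1. Among the receptors for microbial products, 3 of 13 were higher and 5 lower. Cd14 was at 31.4 and 129.7 CPM, a ratio of 4.13 (3.37 to 5.08), and the inflammasome sensor Nlrp3 at 55.1 and 115 CPM, a ratio of 2.09 (1.75 to 2.49), whereas Tlr4, the partner of Cd14, was at 10.7 and 3.47 CPM, a ratio of 0.325 (0.140 to 0.671). Of 22 transcription factors, 6 were higher and 2 lower. Cebpb, which drives inflammatory genes in myeloid cells, was at 336 and 995 CPM, a ratio of 2.96 (2.77 to 3.16), and its relative Cebpa at 49.8 and 30.5 CPM, a ratio of 0.613 (0.467 to 0.796). The nuclear receptor Nr4a3 was at 51.6 and 247 CPM, a ratio of 4.78 (4.09 to 5.59), and Batf at 51.6 and 112 CPM, a ratio of 2.17 (1.81 to 2.59) that was 3.09 (2.42 to 3.94) in Xist-positive and 1.20 (0.867 to 1.66) in Y-positive cells. The myeloid master factor Spi1 was at 353 and 395 CPM.

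Genes of glycolysis and the hypoxia response were higher in the knockout cells. Of 17 measured, 11 were at least 1.5-fold higher and 1 lower, with a median log2 ratio of 0.71. The glycolytic enzymes Gapdh and Eno1 were at 899 and 1822 CPM and at 125 and 291 CPM, ratios of 2.03 (1.94 to 2.12) and 2.32 (2.08 to 2.60), and Aldoa was at 128 and 258 CPM, a ratio of 2.02 (1.80 to 2.26). The glucose transporter Slc2a1 was at 18.1 and 46.7 CPM, a ratio of 2.57 (1.92 to 3.47), and the lactate exporter Slc16a3 at 10.5 and 52.5 CPM, a ratio of 5.02 (3.56 to 7.19). Hilpda, a hypoxia-induced lipid droplet protein, was at 24.9 and 137 CPM, a ratio of 5.49 (4.41 to 6.88) that was 9.97 (7.34 to 13.8) in Xist-positive and 2.18 (1.55 to 3.1) in Y-positive cells, and Ndrg1, another hypoxia-induced gene, at 25.1 and 129.7 CPM, a ratio of 5.16 (4.14 to 6.47). The hexokinase Hk2 and Hif1a itself were not higher, at 133 and 112 CPM and at 70.7 and 57.5 CPM. Genes coding for vessel-acting factors and proteases were higher too, 7 of 14 against 1 lower. Vegfa, the ligand of VEGFR2, was at 10.2 and 49.4 CPM, a ratio of 4.83 (3.40 to 6.96), in 14 control and 42 knockout cells, and Pgf, a ligand of VEGFR1, at 3.02 and 24.7 CPM, a ratio of 8.17 (4.46 to 16.2). Thbs1, an inhibitor of vessel growth, was at 25.6 and 74.5 CPM, a ratio of 2.91 (2.29 to 3.71), and the elastase Mmp12 at 30.0 and 89.9 CPM, a ratio of 3.0 (2.41 to 3.75). Within sexes the Vegfa ratio was 14.0 (8.02 to 26.2) in Xist-positive and 1.16 (0.688 to 1.98) in Y-positive cells. The list's median was 0.35 and 0.22, over only those of its genes with at least 20 UMIs within each sex.

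Cell cycle and interferon-response genes were lower as summed. Both list medians moved after thinning, where only genes that still had at least 20 UMIs were used. Of 20 proliferation genes 0 were at least 1.5-fold higher and 11 lower (median log2 ratio -0.61). Mki67 was at 147 and 96.5 CPM, a ratio of 0.655 (0.564 to 0.760), and Top2a at 164 and 92.6 CPM, a ratio of 0.565 (0.486 to 0.655), although the share of cells with either gene was 41.0% and 40.5%. Without the cells that had Mki67 or Top2a the list's median was 0.15, and after thinning to 2000 UMIs it was -0.20, beside -0.17 for all genes without thinning, with Mki67 at 1.10 and Top2a at 1.20. Of 16 interferon-response genes, 1 was higher and 7 lower (median -0.40, and 0.13 after thinning). Ifi27l2a was at 582 and 291 CPM, a ratio of 0.500 (0.461 to 0.543), and Mx1, an antiviral gene, at 17.9 and 6.18 CPM, a ratio of 0.345 (0.188 to 0.596). Isg15 and Ifitm3 were near level, at 34.7 and 32.8 CPM and at 1859 and 1958 CPM. The dissociation stress list, given because activation genes overlap with it, had 4 of 20 genes higher and 3 lower (median 0.27): Jun and Egr1 were lower, with ratios of 0.625 and 0.510, Junb was at 1.39, Hspa1a at 1.12 and Nr4a2 at 3.25 (2.86 to 3.71). Its part in the activation genes was not tested.

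Several of these patterns were shared with neighbouring cells. The median log2 ratio of the hypoxia and glycolysis list was 0.71 here, 0.86 in C1q macrophage-like cells, 0.92 in Cd209a-negative MHC class II cells, 0.57 in Ly6c2-positive cells and 0.23 in glia without leukocyte UMIs. That median was thus above 0 in every leukocyte class compared. The maturation list had medians of 0.77 here and 1.29 in the Cd209a-negative MHC class II cells, and 0.07 in C1q macrophage-like cells, 0.07 in Ly6c2-positive cells and 0.19 in glia. The NF-kB list had 0.34 here, 0.71 in Cd209a-negative, 0.45 in Ly6c2-positive and -0.38 in C1q macrophage-like cells and 0.17 in glia. Proliferation genes had negative medians in all 5 classes, from -1.13 in glia to -0.20 in the Cd209a-negative cells. The MHC class II list was 0.04 here, -0.10 in Cd209a-negative, 0.75 in Ly6c2-positive and -1.25 in C1q macrophage-like cells and 0.67 in glia. These medians are set side by side as values, since the differences between classes were not tested.

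**Figure D4:**
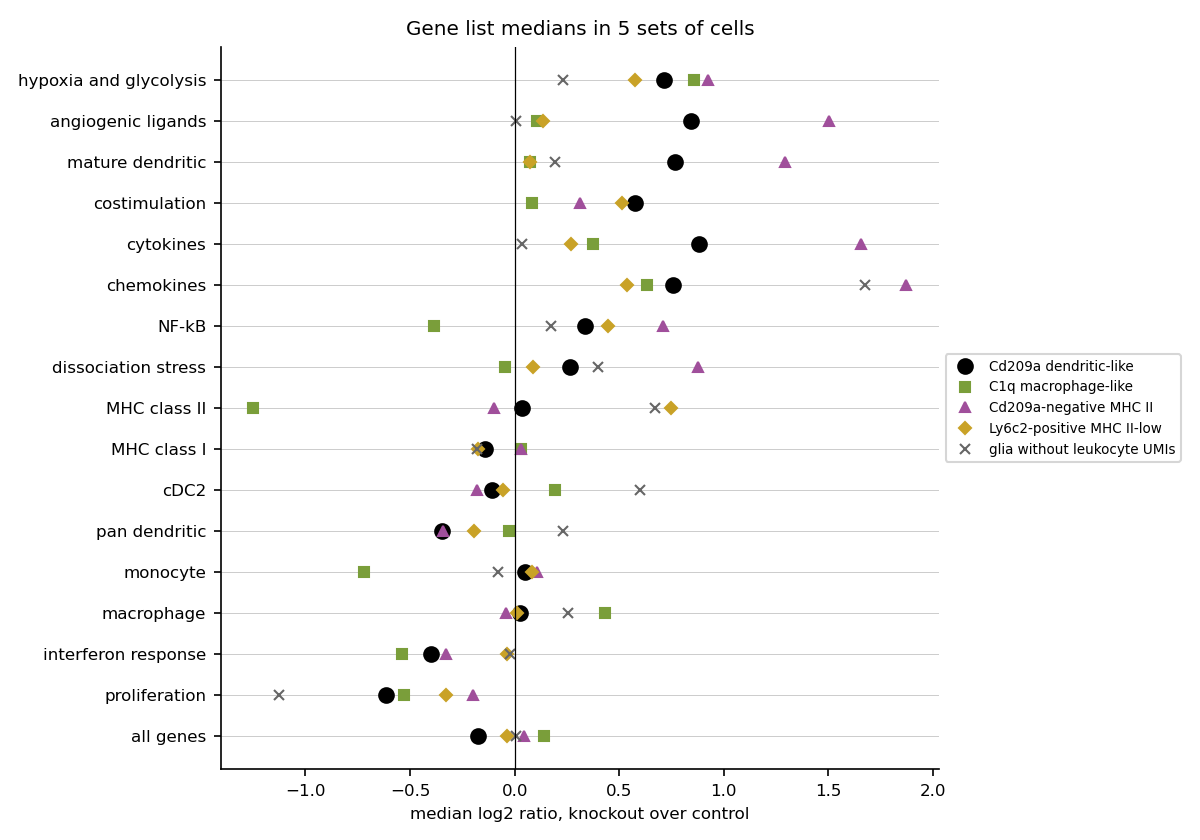
Median log2 ratio, knockout over control, of gene lists (rows) in the Cd209a dendritic-like cells (black circles) and 4 other classes, with all genes in the last row. The hypoxia and glycolysis list lies right of 0 in all 5 classes (0.23 to 0.92), the maturation list lies furthest right in the 2 MHC class II classes, and proliferation lies left of 0 in all 5.

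Comparisons within female and within male cells used 166 and 91 Xist-positive and 39 and 56 Y-positive cells. All 24 genes named by rank lay on the same side within Xist-positive cells and 23 of 24 within Y-positive cells, the exception being Tsix, which had 0 UMIs there; 24 and 22 were at least 2-fold apart. Cd83 had ratios of 3.76 (3.42 to 4.13) and 1.49 (1.29 to 1.71), Il1b of 2.49 (2.29 to 2.71) and 1.80 (1.62 to 2.0), and Plaur of 8.16 (6.83 to 9.79) and 3.48 (2.63 to 4.66). Gapdh and Eno1 were alike in both, with 1.92 and 1.88 for Gapdh and 2.14 and 2.69 for Eno1. Ccr7 was at 22.0 (14.7 to 34.1) and 3.02 (1.88 to 5.01), so the intervals did not meet although both lay above 1. For other genes the interval in Y-positive cells included 1: Vegfa was at 14.0 (8.02 to 26.2) in Xist-positive and 1.16 (0.688 to 1.98) in Y-positive cells, Nr4a2 at 5.30 (4.42 to 6.39) and 1.02 (0.806 to 1.29), Cd86 at 2.68 (2.03 to 3.54) and 0.992 (0.638 to 1.54), Id2 at 2.52 (2.15 to 2.96) and 0.961 (0.713 to 1.29), and Apoe at 0.355 (0.290 to 0.432) and 1.02 (0.741 to 1.39). The intervals of the 2 sets lay apart for 54 of the 143 genes compared, and for 10 both excluded 1 on opposite sides: Mgl2, Ccl4, Ccl6, Nfkbia, Icam1, Tubb5, Hspa1a, Junb, Fos and Irf8. The ratios were 1.85 (1.70 to 2.01) and 0.852 (0.777 to 0.935) for Ccl4 and 0.690 (0.618 to 0.770) and 1.30 (1.13 to 1.49) for Mgl2. Mx1 was at 0.338 (0.148 to 0.679) and 1.16 (0.333 to 4.17). In the control library the Y-positive cells were the higher of the 2 for Cd83 (229.5 and 451 CPM in Xist-positive and Y-positive cells) and Vegfa (4.65 and 38.3 CPM). How many animals these cells came from is not given, so sex and animal cannot be told apart.

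**Figure D5:**
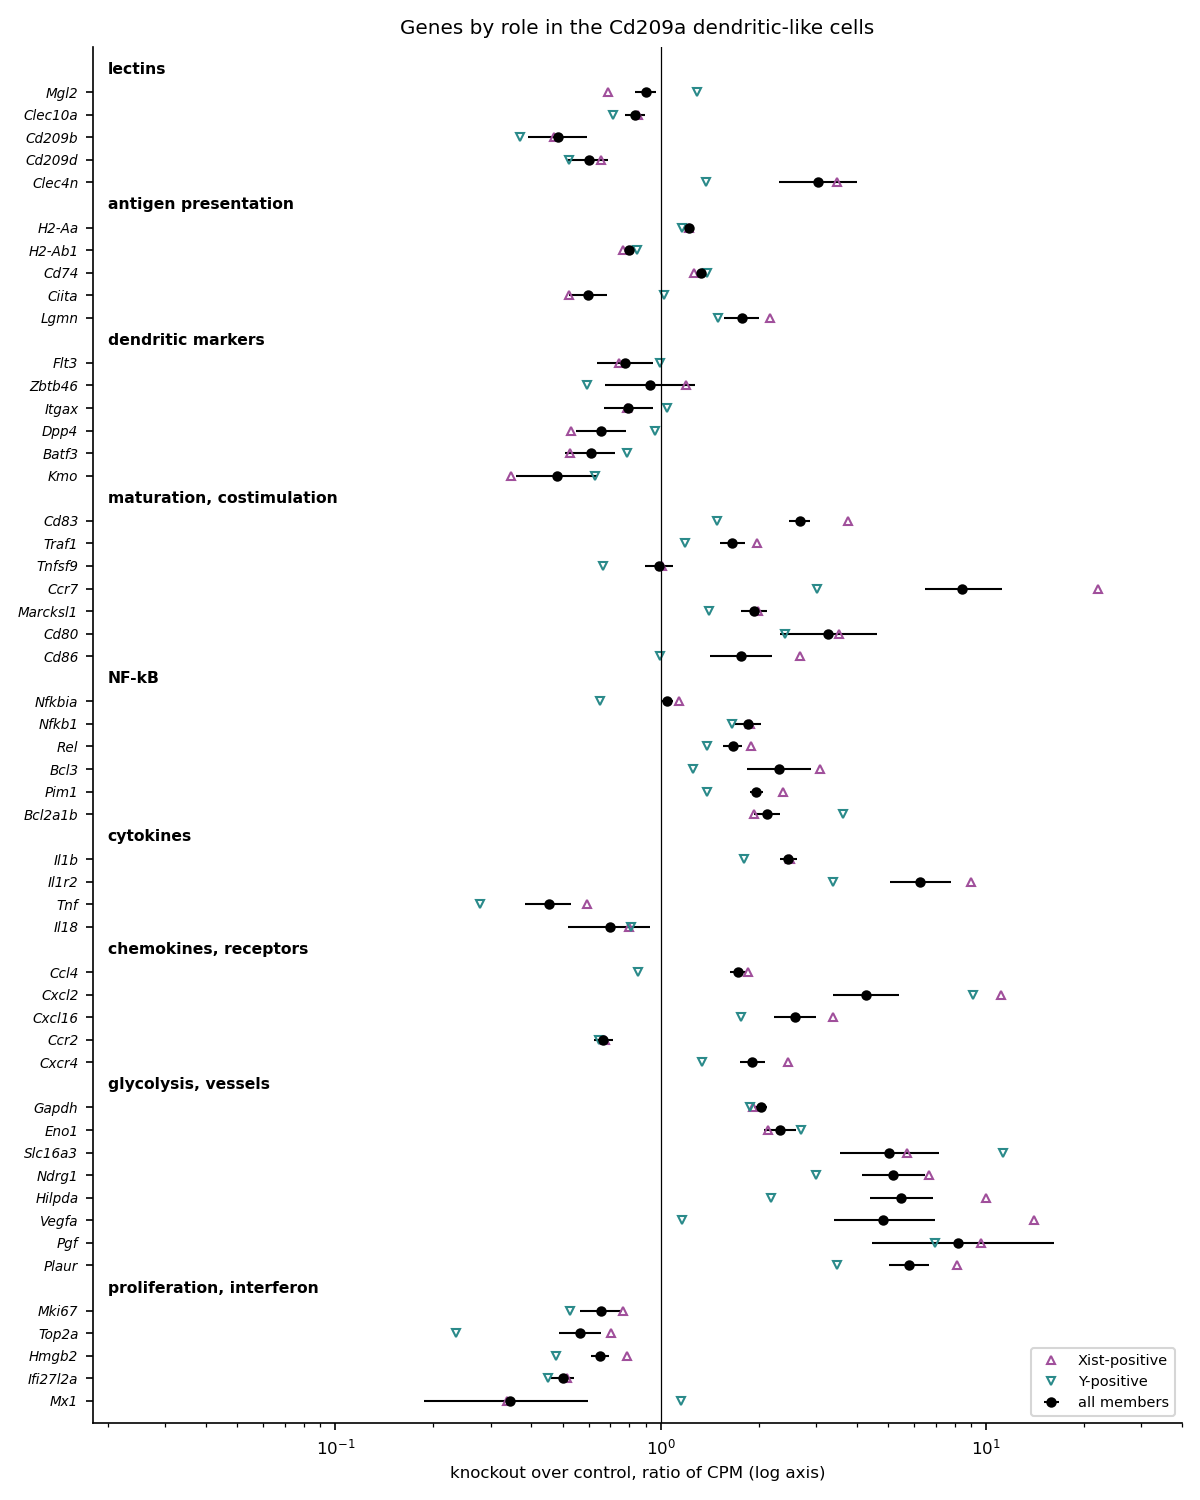
Knockout over control ratio of summed CPM (log axis) for genes grouped by role, over all Cd209a dendritic-like cells (black, with exact 95% intervals) and within Xist-positive (upward triangles) and Y-positive cells (downward triangles). Gapdh, Eno1, Ndrg1 and Plaur lie right of 1 and Ccr2, Tnf and Ifi27l2a left of 1 in all 3 sets, whereas Vegfa is at 14.0 in Xist-positive and 1.16 in Y-positive cells.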

How the data were processed

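The deposited tables hold UMI counts per gene and cell barcode for 1 library per genotype, made by the authors with Cell Ranger from 10x 3' v3.1 libraries; per the file headers the version was 5.0.0 for the control and 6.0.1 for the knockout library, while the submitters' processing notes name 6.0.1 and build mm10 for both. The effect of that difference was not tested. Kept barcodes had at least 500 genes and 1000 UMIs and at most 10% mitochondrial UMIs. Doublets were not removed; Scrublet (scanpy 1.11.5) called 20 control (0.859%) and 4 knockout cells (0.238%), 2 and 1 of them among the cells described, and its calls were removed only as an alternative. UMIs were summed over the cells of a library and divided by their total UMIs. Intervals are exact Poisson (CPM), Clopper-Pearson (shares) and conditional binomial (ratios), computed with scipy 1.17.1, numpy 2.4.6 and pandas 2.3.3 in Python 3.11.15.

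Genes named by rank had at least 30 UMIs, 8 cells and at most 50% of UMIs in 1 cell in the higher library, and there a CPM of at least 25% of that of the other cells; mitochondrial, ribosomal, haemoglobin, Y-linked, Xist and unnamed model genes and those of the definition were left out. The 12 highest and 12 lowest were ranked by the interval bound nearest 1, and against each class the 10 highest and 10 lowest. Other genes were named as given markers or as list members with most UMIs or past 1.5-fold. Cd207, Ighm and Plac8 were named as single markers outside that rule, after their values were seen. The cells and the 37 lists were chosen with earlier results of these data known. The ratio and interval code was tested on simulated data. Promoter stretches come from RefSeq, GRCm38.p6. A few genes are not reported here.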

Additional observations from a re-analysis of the deposited data

How the results depend on the processing

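The knockout over control ratio of the share of cells was 1.22, and 0.918 with Ptprc- or Tyrobp-positive cells as the denominator. The Ccr7 share ratio of 4.36 was 8.21 among Xist-positive and 1.39 among Y-positive cells. Genes at least 2-fold higher and lower, 354 and 433, numbered 182 and 164 in Y-positive cells, 151 and 128 in cells thinned to 2000 UMIs, 2171 and 2612 with a minimum of 1 UMI, 197 and 139 with a minimum of 100 UMIs, and 462 and 246 after division by the median ratio; fewer genes reach the minimum in fewer or thinned cells. The hypoxia and glycolysis list ranged from 0.63 to 0.95 (median log2 ratio), the mature dendritic list from 0.59 to 1.03 and the chemokines from 0.54 to 1.00 over all alternatives. When thinned, the cytokine list went from 0.88 to -0.13, the interferon list from -0.40 to 0.13, the proliferation list from -0.61 to -0.20, Mki67 to 1.10 and Top2a to 1.20; other list changes were the angiogenic ligands from 0.84 to 0.35 in Xist-positive and 0.22 in Y-positive cells and to 1.499 when thinned, the proliferation list from -0.61 to 0.15 without cells with Mki67 or Top2a, and the mesenchyme list from 1.16 to -0.52 without cells with C1q UMIs. In Y-positive cells Apoe turned to 1.02, Mx1 to 1.16 and Id2 to 0.961; Cd274 turned to 0.760 without cells with Mki67 or Top2a, and Il6 to 0.291 when thinned. Each list median used only the genes with at least 20 UMIs in the cells of that alternative. The cause was not tested in any of these changes. Of 354 alternative values of the 24 genes named by rank, 305 lay inside the interval of the main value, 49 outside it on the same side, and 0 turned. The alternatives draw on the same cells that ranked these genes, so they are not an independent check. Subsets by Ccr7, cycling, C1q and other cell types were chosen after the data were seen. No paired analysis was possible because each genotype has 1 library and the labels carry no replicate numbers, and no replicate could be left out. The depth limits ratios of genes with few UMIs, as their intervals show.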
